A study of Danio rerio with 18 samples.

Results

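The genes described here are those of the cyp1 family and of the aryl hydrocarbon receptor (AHR) pathway. They were taken by symbol from a list of 8 names: *ahr2*, *cyp1a*, *cyp1b1*, *cyp1c1*, *cyp1c2*, *ahrra*, *ahrrb* and *tiparp*. Of these, 6 were found by symbol among the 31388 genes counted. A further gene, *ahrra* (ENSDARG00000099702), was found by its Ensembl identifier, since the count files give it a clone name, which makes 7 genes. *cyp1c1* was not analysed here. The list was chosen by measured values, namely because *cyp1a* was higher than in germ-free wildtype larvae with *Chryseobacterium* but not in the other colonized wildtype groups. The levels of *cyp1a* in wildtype larvae, and every contrast of a colonized with a germ-free wildtype group, are therefore given as a description. Genes past the thresholds there are named or counted beside the share of all genes, with no adjusted p, and nothing is read from these counts.

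Libraries made from total RNA of whole zebrafish larvae at 5 days post fertilization (DPF) were sequenced. There were 18 libraries in 6 groups of 3, and every library was made from 15 pooled larvae. The *myd88* mutants, homozygous for the allele hu3568 and outcrossed to the ABTL line, lack the adapter protein of most Toll-like receptors and were either conventionalized (CONVD), meaning colonized from day 3 with an undefined community, or kept germ-free (GF). Wildtype (WT) ABTL larvae were mono-associated with *Chryseobacterium* ZOR0023, mono-associated with *Exiguobacterium* ZWU0009 (each from 3 to 5 DPF), CONVD or GF. Per the study's methods, the water held more *Chryseobacterium* than *Exiguobacterium*, and far fewer bacteria in the CONVD group. The paper estimates loads per larva that were alike for both species and somewhat lower in CONVD larvae. Between colonized groups, the bacteria and their dose in the water therefore cannot be told apart. No mutant group was mono-associated. Because mutant and WT larvae did not come from sibling parents, the *myd88* genotype and other parental differences cannot be told apart. The pools are called biological replicates in the labels, which do not tell whether each came from a separate cross or dish, so every p-value measures the spread between these pools. In RNA of whole larvae, fewer cells of a type and less RNA per cell cannot be told apart.

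The AHR is a receptor in the cytosol that binds flat aromatic molecules, among them dioxins, plant indoles and tryptophan metabolites made by the host or by bacteria. Once bound, it moves to the nucleus, pairs with Arnt and switches on a battery of genes, of which *cyp1a* is the standard marker. The battery includes the enzymes that break down the ligands as well as the AHR repressors and *tiparp*, which damp the receptor. In fish, *cyp1a* is inducible in liver, gut, kidney, gill, skin and the lining of blood vessels.

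Total counts per library ranged from 6404744 to 11582884 in *Chryseobacterium* larvae, and from 7946202 to 23600976 over the other 5 groups. The library kit does not mark the strand, so reads of overlapping antisense genes cannot be told apart. Levels are given as CPM, the reads of a gene scaled to a common library size after TMM, which allows for the make-up of each library. CPM are not divided by gene length, so a level of one gene cannot be set against that of another. A gene was called when its adjusted p (Benjamini-Hochberg, over 23367 tested genes, edgeR's quasi-likelihood test) was below 0.05 and its fold change at least 1.3, the thresholds of the study. All 7 genes passed the filter on low counts, which asked for 0.833 CPM or more in 3 libraries. *ahrra* reached this level in the 3 *Chryseobacterium* libraries and in 0 of the other 15, so it was tested only through the group in which it was high, and its differences from that group are given without a p. The other 6 genes reached it in all 18 libraries. The first principal component, with 55.6% of the variance, separated mutants from WT larvae. On the second component, with 5.52%, *Chryseobacterium* libraries 1 and 3 lay at -29.6 and -25.0. The other 16 libraries lay between -7.93 and 22.6 there. Libraries 1 and 3 of *Chryseobacterium* larvae also had the lowest total counts, at 6404744 and 6740738. On the third component, with 5.31%, *Chryseobacterium* library 1 lay at 35.4 and library 3 at -35.7, whereas the other 16 libraries lay between -7.80 and 11.8. On this component *Chryseobacterium* library 2 stood with the rest, and the fits were repeated with it alone in its group, without libraries 1 and 3. Such a fit takes the spread of this group from the other groups, so calls kept or lost in it are not read as results. The *myd88* transcript, whose reads are still counted in mutants, was at 3.33 ± 0.411 CPM in GF mutants and 10.5 ± 1.68 CPM in GF WT larvae (SD, n = 3 each), with adjusted p = 1.6e-09. It was at 4.15 ± 0.389 CPM in CONVD mutants and 4.85 ± 0.826 CPM in CONVD WT larvae, which the test did not separate (adjusted p = 0.184, edgeR).

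*cyp1a* (ENSDARG00000098315) encodes the cytochrome P450 that oxidizes AHR ligands. Its level was 64.9, 59.2 and 57.1 CPM in the libraries of *Chryseobacterium* larvae, from 421, 693 and 390 reads. In *Exiguobacterium* larvae it was 17.7, 21.2 and 19.2 CPM, in CONVD WT larvae 15.7, 14.8 and 16.6 CPM, and in GF WT larvae 14.6, 17.5 and 17.2 CPM. The lowest *Chryseobacterium* library thus lay above every other WT library, while the remaining 9 WT libraries lay in a narrow band. The mutants held levels in between. *cyp1a* was at 39.2, 40.5 and 39.3 CPM in CONVD mutants and at 46.0, 44.2 and 36.0 CPM in GF mutants, above all WT libraries except those with *Chryseobacterium*. Ordered by mean, the groups ran from *Chryseobacterium* (60.4 ± 4.05 CPM, SD, n = 3) over GF mutants (42.1 ± 5.34 CPM), CONVD mutants (39.7 ± 0.714 CPM), *Exiguobacterium* (19.4 ± 1.71 CPM) and GF WT larvae (16.4 ± 1.62 CPM) to CONVD WT larvae (15.7 ± 0.908 CPM). The ranges of both mutant groups overlapped, as did those of the GF and CONVD WT groups, and the other neighbours in this order did not overlap.

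**Figure D1:**
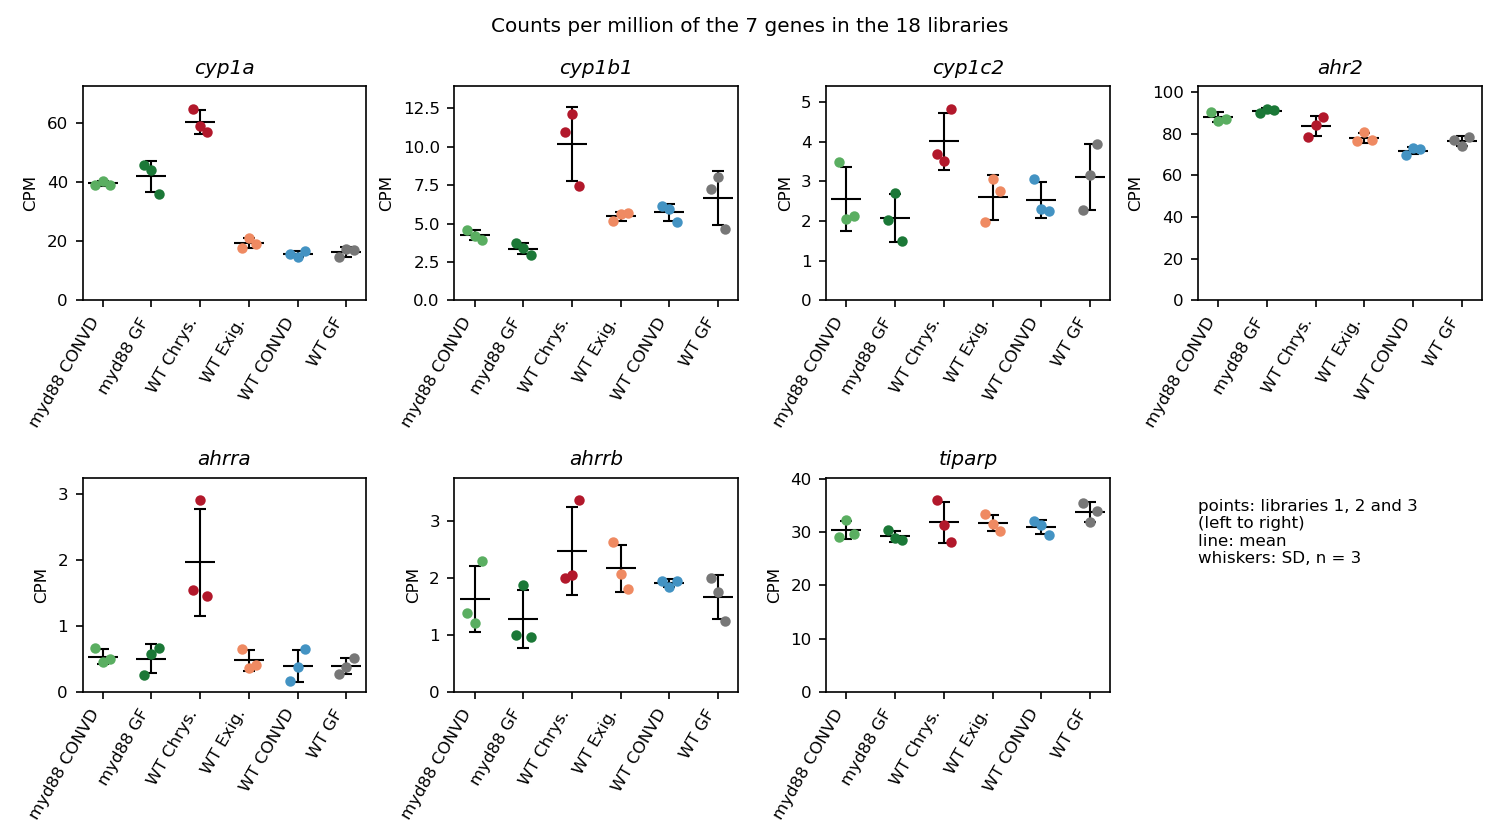
Levels of the 7 genes in CPM (y axis, each panel from 0 with its own scale) in the 6 groups; points are the 3 libraries of a group, the line is their mean and the whiskers the SD. The 3 *Chryseobacterium* libraries hold 57.1 to 64.9 CPM of *cyp1a* and the 6 mutant libraries 36.0 to 46.0 CPM, against 14.6 to 21.2 CPM in the other WT libraries.

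Against GF WT larvae, the log2 fold change of *cyp1a* was 1.88 ± 0.10 (SE) with *Chryseobacterium*, or 3.69-fold, 0.24 ± 0.11 with *Exiguobacterium* and -0.06 ± 0.10 in CONVD larvae. With *Chryseobacterium* library 2 alone, the value was 1.87. Between the colonized groups, the log2 fold change was 1.64 ± 0.09 for *Chryseobacterium* over *Exiguobacterium* and 1.94 ± 0.09 for *Chryseobacterium* over CONVD larvae. With library 2 alone these values were 1.62 and 1.92. Over all alternative settings the *Chryseobacterium* over GF value stayed between 1.81 and 1.94.

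*cyp1b1* (ENSDARG00000068934) encodes another cytochrome P450 of the family, which metabolizes retinoids and steroids as well as AHR ligands. It was at 10.9, 12.1 and 7.46 CPM in *Chryseobacterium* larvae. In *Exiguobacterium* larvae it was at 5.15, 5.63 and 5.68 CPM, in CONVD WT larvae at 6.13, 5.93 and 5.13 CPM, and in GF WT larvae at 7.28, 8.07 and 4.66 CPM. The *Chryseobacterium* libraries lay above all *Exiguobacterium* and CONVD libraries, but the lowest of them lay below the highest GF library. The mutants had the lowest levels, at 4.61, 4.17 and 3.94 CPM when CONVD and at 3.72, 3.43 and 2.99 CPM when GF. The lowest WT library thus exceeded all 6 mutant libraries, which is the opposite of the order seen for *cyp1a*.

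*cyp1c2* (ENSDARG00000101789) encodes a P450 of a branch of the family that mammals lack. It was at 3.70, 3.50 and 4.83 CPM in *Chryseobacterium* larvae, at 1.97, 3.06 and 2.77 CPM in *Exiguobacterium* larvae, at 3.06, 2.30 and 2.27 CPM in CONVD WT larvae and at 2.28, 3.15 and 3.94 CPM in GF WT larvae. The *Chryseobacterium* libraries lay above those of both other colonized groups and overlapped the GF libraries. In mutants the level was 3.50, 2.05 and 2.14 CPM when CONVD, and 2.02, 2.72 and 1.49 CPM when GF, so that each group overlapped the next in the order of means. *cyp1c2* has a close relative, *cyp1c1*, beside it in the genome, and how reads shared by such copies were counted is not given in the sources used here.

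*ahr2* (ENSDARG00000021833) encodes the receptor through which dioxins act in zebrafish. It was at 78.6, 84.1 and 88.1 CPM in *Chryseobacterium* larvae, at 76.6, 81.0 and 76.9 CPM in *Exiguobacterium* larvae, at 70.0, 73.1 and 72.4 CPM in CONVD WT larvae and at 77.2, 74.1 and 78.6 CPM in GF WT larvae. The receptor transcript was thus nearly level among WT groups. The lowest *Chryseobacterium* library, at 78.61 CPM, lay just above the highest GF library, at 78.55 CPM. Mutants held 90.5, 86.1 and 87.1 CPM when CONVD and 89.9, 91.9 and 91.6 CPM when GF, above every *Exiguobacterium*, CONVD and GF library of WT larvae.

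The AHR repressors compete with the receptor for Arnt and for its binding sites. *ahrra* had few reads. In *Chryseobacterium* larvae it had 10, 34 and 10 reads, or 1.54, 2.91 and 1.46 CPM. It had 6, 3 and 6 reads (0.657, 0.367 and 0.416 CPM) in *Exiguobacterium* larvae, 2, 9 and 12 reads (0.170, 0.376 and 0.648 CPM) in CONVD WT larvae, and 3, 3 and 5 reads (0.273, 0.378 and 0.518 CPM) in GF WT larvae. Every *Chryseobacterium* library lay above all other libraries, and library 2 held the highest level. CONVD mutants had 0.666, 0.449 and 0.493 CPM and GF mutants 0.252, 0.582 and 0.672 CPM, overlapping the other WT groups. With so few reads, this overlap cannot tell whether *ahrra* shared the high mutant levels of *cyp1a*.

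*ahrrb* (ENSDARG00000052618), the other repressor, was at 2.00, 2.05 and 3.37 CPM in *Chryseobacterium* larvae, between 1.80 and 2.63 CPM in *Exiguobacterium* larvae, between 1.84 and 1.96 CPM in CONVD WT larvae and between 1.24 and 2.00 CPM in GF WT larvae. It was between 1.22 and 2.30 CPM in CONVD mutants and between 0.971 and 1.88 CPM in GF mutants. Each group overlapped the next in the order of means. *tiparp* (ENSDARG00000061841) encodes an enzyme that attaches ADP-ribose to the receptor and in mice damps its activity. *tiparp* likewise overlapped between each group and the next in the order of means, but its GF mutant libraries lay below all GF WT libraries. It was at 35.9, 31.4 and 28.1 CPM in *Chryseobacterium* larvae, between 30.3 and 33.3 CPM in *Exiguobacterium* larvae, between 29.4 and 32.1 CPM in CONVD WT larvae and between 31.9 and 35.5 CPM in GF WT larvae. In mutants it lay between 29.1 and 32.3 CPM when CONVD and between 28.5 and 30.4 CPM when GF.

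Set against GF WT larvae, 3 of the 7 genes passed the thresholds with *Chryseobacterium*, beside 1.51% of all genes tested. The count includes *cyp1a*, on which the list was chosen, and *ahrra*, which entered the test through this group, so it is no result about the list. The genes were *cyp1a*, *ahrra* with a log2 fold change of 2.42 ± 0.46 (SE) and *cyp1b1* with 0.65 ± 0.18. The other 4 had log2 fold changes of 0.52 ± 0.32 (*ahrrb*), 0.35 ± 0.26 (*cyp1c2*), 0.13 ± 0.06 (*ahr2*) and -0.09 ± 0.08 (*tiparp*). With *Chryseobacterium* library 2 alone the value was 2.89 for *ahrra*, 0.88 for *cyp1b1*, 0.30 for *ahrrb*, 0.19 for *cyp1c2*, 0.14 for *ahr2* and -0.10 for *tiparp*. Without library 2 it was 1.94 for *ahrra* and 0.48 for *cyp1b1*, and neither gene passed. *cyp1b1* also did not pass in DESeq2, when thinned to equal depth, when these 2 groups were fitted alone, or without GF WT library 1 or 3 or *Chryseobacterium* library 1, where its value lay between 0.45 and 0.75. With *Exiguobacterium*, 0 of the 7 genes passed in edgeR or in DESeq2, beside 0.757% of all genes. The 1 gene with an unadjusted p under 0.05 (edgeR) was *cyp1a*, on which the list was chosen, so nothing is read from it. In CONVD larvae 0 of 7 passed in either tool, beside 1.63% of all genes, and 0 had an unadjusted p under 0.05. These 3 comparisons share their GF libraries.

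**Figure D2:**
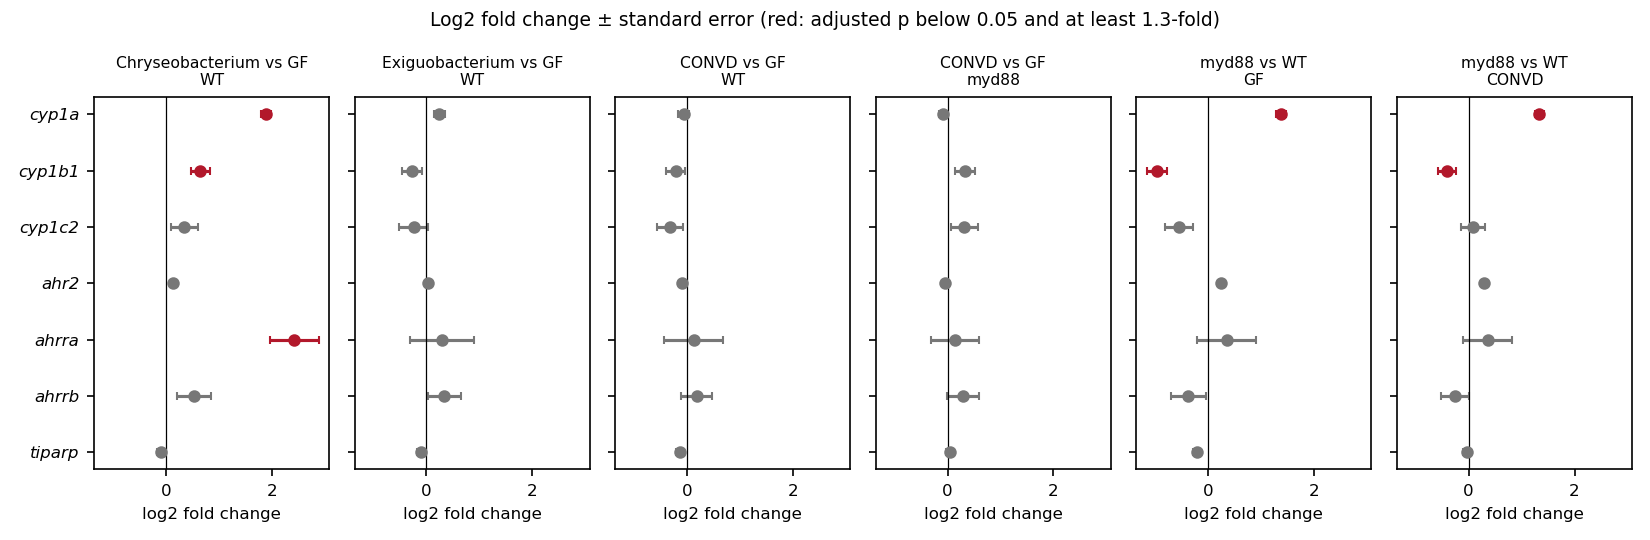
Log2 fold change (x axis) of the 7 genes in 6 comparisons, each the first-named group over the second, with whiskers of 1 standard error; red points passed the thresholds. In the first panel *cyp1a* stands at 1.88, *ahrra* at 2.42 and *cyp1b1* at 0.65, and in the mutant panels *cyp1a* stands at 1.37 and 1.34 with *cyp1b1* on the other side of 0, at -0.96 and -0.42; the first 3 panels describe the contrasts behind the choice of *cyp1a*, from which nothing is read.

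The colonized WT groups were also set against each other. These comparisons use the *Chryseobacterium* libraries on which *cyp1a* was chosen, and they share them, so they are not independent of each other. The genes were also chosen with earlier results of these data known, so the values of *cyp1b1* over either group are no independent test. Of the 5 genes other than *cyp1a* and *ahrra*, *cyp1b1* rose in *Chryseobacterium* over *Exiguobacterium* larvae, beside 0.77% of all genes. Its log2 fold change was 0.92 ± 0.18 (SE), with adjusted p = 0.00615 (edgeR). The call was lost without *Chryseobacterium* library 2, at 0.74 (adjusted p = 0.0593). With library 2 alone, which is then assumed to vary like the other groups, the value was 1.15. *cyp1c2* was at 0.59 ± 0.27 (adjusted p = 0.406). *ahrra* stood at 2.13 ± 0.43, at 1.65 without *Chryseobacterium* library 2 and at 2.60 with that library alone.

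Over CONVD larvae, *cyp1b1* again rose in *Chryseobacterium* larvae, beside 0.116% of all genes, or 27 genes. It was at 0.87 ± 0.16 (adjusted p = 0.0105, edgeR), and at 1.09 with *Chryseobacterium* library 2 alone. The call was lost without library 2, at 0.69 (adjusted p = 0.159), and with both groups fitted alone, at 0.87 (adjusted p = 0.111). *cyp1b1* also missed the threshold when thinned to equal depth (adjusted p = 0.212) and without *Chryseobacterium* library 1 (adjusted p = 0.0751) or CONVD library 3 (adjusted p = 0.111). *cyp1c2* was at 0.67 ± 0.25 (adjusted p = 0.633) and *ahr2* at 0.22 ± 0.06 (adjusted p = 0.167). *ahrra* stood at 2.29 ± 0.39, at 1.81 without *Chryseobacterium* library 2 and at 2.76 with that library alone.

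Mutants were compared with WT larvae of the same colonization state. These contrasts did not choose the genes, although they use the same WT libraries. *cyp1a* was higher in mutants in both states. In GF larvae the log2 fold change was 1.37 ± 0.09 (SE; 2.58-fold, adjusted p = 1.1e-12) and in CONVD larvae 1.34 ± 0.09 (2.53-fold, adjusted p = 2.5e-13, edgeR), and the call held in 12 of 12 alternative settings in each state. *cyp1b1* was lower in mutants. It fell by 0.96 ± 0.19 in GF larvae (adjusted p = 0.00014), in 12 of 12 settings. Among CONVD larvae it stood at -0.42 ± 0.17 (adjusted p = 0.0462), but that call held in only 4 of 12 settings, with adjusted p between 0.0182 and 0.127. It was lost in DESeq2, without the low-count filter, when thinned, and without CONVD WT library 1 or 2 or any of the CONVD mutant libraries.

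Many genes differed between genotypes. Of the 7 genes 2 were called in each state, against 31.3% of all genes in GF larvae and 29.7% in CONVD larvae, which is near the background and is not a result about these genes as a group. *ahr2* was higher in mutants by a log2 fold change of 0.25 ± 0.06 in GF larvae (adjusted p = 0.00049) and of 0.29 ± 0.05 in CONVD larvae (adjusted p = 5.7e-05), which is below 1.3-fold. *tiparp* was at -0.21 ± 0.08 in GF mutants over GF WT larvae (adjusted p = 0.0304), below 1.3-fold, and at -0.03 ± 0.08 in CONVD larvae (adjusted p = 0.803). *cyp1c2* was at -0.56 ± 0.26 in GF larvae (adjusted p = 0.0873) and passed only without GF WT library 1 or GF mutant library 2. The repressors were not called in either state: *ahrra* was at 0.35 ± 0.56 and 0.36 ± 0.46, and *ahrrb* at -0.37 ± 0.32 and -0.26 ± 0.27, in GF and in CONVD larvae in that order.

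The mutants also differed from WT larvae in markers of organs in which these genes are inducible, beside the 31.3% of all genes called in GF and the 29.7% in CONVD larvae. The summed level of 6 hepatocyte markers was 2578 to 2744 CPM in GF mutants and 1434 to 1999 CPM in GF WT larvae. In CONVD larvae it was 2074 to 2435 CPM in mutants and 1424 to 1824 CPM in WT larvae, and 4 of the 6 markers were called higher in each state. The sum of 6 enterocyte markers was 1626 to 1781 CPM in GF mutants and 888.3 to 1098 CPM in GF WT larvae, with 5 of 6 called higher, and 1283 to 1444 CPM in CONVD mutants and 893.8 to 1062 CPM in CONVD WT larvae, with 4 of 6 called higher. No marker was at 0 reads in any library. The part of such organ differences in those of *cyp1a* and *cyp1b1*, and in the genotype calls of the pathway lists given below, was not tested. The sum of 3 kidney tubule markers was 260.9 to 282.5 CPM in GF mutants and 142.6 to 177.5 CPM in GF WT larvae, with 2 of 3 called higher. In CONVD larvae the kidney sum was 235.9 to 244.5 CPM in mutants and 142.8 to 163.1 CPM in WT larvae. Again 2 of 3 were called higher. The sum of 6 endothelium markers was 123.9 to 135.4 CPM in GF mutants and 111.9 to 114.2 CPM in GF WT larvae. Of these, 2 of 6 were called higher, which is near the background and no result about the list. The endothelium sum was 124.4 to 130.9 CPM in CONVD mutants and 103.9 to 110.6 CPM in CONVD WT larvae. There 3 of 6 were called higher. In GF larvae the sum of epidermis and ionocyte markers went the other way. It was 7735 to 8219 CPM in mutants and 9625 to 10400 CPM in WT larvae. Of the 5 markers, 2 were called higher and 1 lower. In CONVD larvae their sums overlapped, at 7566 to 8747 CPM in mutants and 8145 to 10200 CPM in WT larvae. There 2 of the 5 were called higher. With *Chryseobacterium*, 0 of the 6 hepatocyte markers were called in edgeR against GF, *Exiguobacterium* or CONVD larvae, beside 1.51%, 0.77% and 0.116% of all genes. Of the 6, 0, 5 and 1 had an unadjusted p under 0.05, and DESeq2 called 2 against *Exiguobacterium* larvae only. The sum was 1230 to 1747 CPM in *Chryseobacterium* larvae, against 1997 to 2399 CPM in *Exiguobacterium* and 1434 to 1999 CPM in GF larvae. The enterocyte sum was 636.8 to 872.1 CPM in *Chryseobacterium* larvae, against 888.3 to 1098 CPM in GF WT larvae. In edgeR 1 of the 6 enterocyte markers, *anpepb*, was called lower with *Chryseobacterium* over GF and over *Exiguobacterium* larvae, beside 1.51% and 0.77% of all genes. Of the 6, 3 and 6 had an unadjusted p under 0.05, and DESeq2 called 1 and 3. With *Chryseobacterium* library 2 alone 0 of the 6 were called in edgeR in either comparison. That library held 1747 CPM of the hepatocyte and 867.8 CPM of the enterocyte markers.

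Colonization of mutants was compared with their GF state. Of the 6 genes other than *cyp1a*, 0 were called in edgeR or in DESeq2, beside 0.077% of all genes. None of them had an unadjusted p under 0.05 (edgeR). The log2 fold changes, CONVD over GF, were 0.33 ± 0.19 for *cyp1b1*, 0.32 ± 0.25 for *cyp1c2*, 0.29 ± 0.30 for *ahrrb*, 0.14 ± 0.46 for *ahrra*, 0.05 ± 0.08 for *tiparp* and -0.05 ± 0.05 for *ahr2*. That of *cyp1a* was -0.09 ± 0.08. The interaction term sets the CONVD over GF response of mutants against the WT response. By it, a difference was called for 0 of the 6 genes other than *cyp1a* in either tool, beside 0.813% of all genes. Of the 6, 1 gene had an unadjusted p under 0.05 (edgeR). That gene was *cyp1b1*, at 0.55 ± 0.26 (adjusted p = 0.641). For *cyp1a*, whose WT response was part of the choice, the difference was -0.03 ± 0.13, given as a description.

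Other genes of the pathway were counted in lists that were drawn up with results of these data already known. The first list held 13 receptors and partners of the AHR, such as *ahr1a* and *ahr1b*, the other zebrafish receptors, *arnt* and *arnt2*, the dimerization partners, and chaperones that hold the receptor in the cytosol. Comparisons of colonization were those of each colonized group with GF larvae, in WT larvae and mutants, and of *Chryseobacterium* with *Exiguobacterium* and with CONVD larvae. In edgeR, 0 of the 13 were called in any of these, beside 0.077% to 1.63% of all genes. That is near the background and no result about the list. Of the 13, between 0 and 3 had an unadjusted p under 0.05 in each of these comparisons, and DESeq2 called 1, in *Chryseobacterium* over *Exiguobacterium* larvae. *arnt* was at 40.3 to 44.5 CPM in *Chryseobacterium* larvae and 35.4 to 40.3 CPM in GF WT larvae, and *arnt2* at 113.4 to 125.2 CPM in *Chryseobacterium* larvae and 118.2 to 130.2 CPM in GF WT larvae. Between genotypes 4 of 13 were called in each state, beside 31.3% of all genes in GF and 29.7% in CONVD larvae, which is near the background and no result about the list. *ncoa1*, a coactivator, was lower in mutants (log2 fold change -0.56 ± 0.09 in GF and -0.64 ± 0.09 in CONVD larvae), as was *ahr1b* (-0.39 ± 0.10 and -0.44 ± 0.09). The cochaperone gene *ptges3b* was higher (0.49 ± 0.14 and 0.55 ± 0.13), with adjusted p of 0.00812 or less for all of these. *hsp90aa1.1* was at 0.58 ± 0.21 in GF larvae (adjusted p = 0.0427) and *ahr1a* at -0.78 ± 0.26 in CONVD larvae (adjusted p = 0.0163). The *hsp90aa1.1* call held in 4 of 12 settings. In GF larvae the *ahr1b* call was lost without WT library 1 or mutant library 1 or 2 and that of *ptges3b* without WT library 1, and in CONVD larvae that of *ahr1a* when thinned or without mutant library 2.

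A list of 23 further names was drawn up for the AHR battery, of which 19 were matched and 17 passed the filter on low counts and were tested. It also holds *cyp1d1*, which dioxin does not induce in zebrafish, and *sox9b*, which dioxin lowers. Its counts and medians are therefore not those of induced targets alone. Of the 17, 2 passed with *Chryseobacterium* over GF larvae, beside 1.51% of all genes. They were a pair of forkhead factor genes, *foxq1a* and *foxq1b*. *foxq1a* (ENSDARG00000030896) held 13.2, 13.3 and 17.95 CPM in *Chryseobacterium* larvae, in ascending order. In the same order it held 6.68, 8.52 and 9.91 CPM in *Exiguobacterium* larvae, 3.00, 4.53 and 5.19 CPM in CONVD WT larvae and 3.82, 6.22 and 7.44 CPM in GF WT larvae, all below the lowest *Chryseobacterium* library. By edgeR it was higher in *Chryseobacterium* than in CONVD larvae by a log2 fold change of 1.89 ± 0.20 (adjusted p = 1.29e-05), in 13 of 13 settings. Over *Exiguobacterium* larvae it was higher by 0.86 ± 0.19 (adjusted p = 0.0251, edgeR). Both tests use the *Chryseobacterium* libraries on which *cyp1a* was chosen, and the list was drawn up with results of these data known. They are therefore no independent test. The call over *Exiguobacterium* was lost without *Exiguobacterium* library 1 or 3 or *Chryseobacterium* library 2, with adjusted p up to 0.134. With *Chryseobacterium* library 2 alone the values were 2.14 over CONVD and 1.11 over *Exiguobacterium* larvae. Mutants held 7.59 ± 0.763 CPM of *foxq1a* when CONVD and 8.63 ± 0.562 CPM when GF. The difference from WT larvae was 0.90 ± 0.20 in CONVD larvae (adjusted p = 0.000761) and 0.60 ± 0.21 in GF larvae (adjusted p = 0.0211).

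*foxq1b* (ENSDARG00000055395) had another pattern, with 5.06 ± 0.111 CPM in *Chryseobacterium* larvae, 3.87 ± 0.296 CPM in *Exiguobacterium* larvae, 4.20 ± 0.426 CPM in CONVD larvae and 2.00 ± 0.379 CPM in GF larvae (WT, SD, n = 3 each). It passed the thresholds in each of the 3 colonized WT groups over GF, although the *Exiguobacterium* call was lost in 7 of 12 settings and the CONVD call when thinned, and was not called between *Chryseobacterium* and the other colonized groups (adjusted p = 0.456 and 0.944). In mutants it was at 5.57 ± 1.19 CPM when CONVD and 6.50 ± 0.862 CPM when GF. The glucuronosyltransferase gene *ugt1b5*, whose reads may be shared with copies of the family, rose in *Chryseobacterium* over *Exiguobacterium* larvae by 0.46 ± 0.10 (adjusted p = 0.0104), and *sox9b*, a cartilage and eye factor lowered by dioxin in zebrafish, stood at 0.39 ± 0.08 in CONVD over GF WT larvae. *sox9b* no longer passed without GF WT library 1 or when thinned, and *ugt1b5* without *Exiguobacterium* library 1 or *Chryseobacterium* libraries 1 and 3, or with the groups alone. The other 13 tested genes of this list, including *nqo1*, were called in no comparison of colonization among WT groups, beside 0.116% to 1.63% of all genes. *nqo1*, a quinone reductase under AHR and Nrf2, was at 37.6 ± 2.29 CPM in *Chryseobacterium* larvae and 39.1 ± 4.28 CPM in GF WT larvae. In CONVD over GF mutants 0 of the 17 were called in edgeR or DESeq2, beside 0.077% of all genes. Of the 17, 3 had an unadjusted p under 0.05 there (edgeR). The median log2 fold change of the list was -0.03 with *Chryseobacterium* over GF and -0.01 over CONVD larvae, and -0.11 and -0.03 with *Chryseobacterium* library 2 alone.

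**Figure D3:**
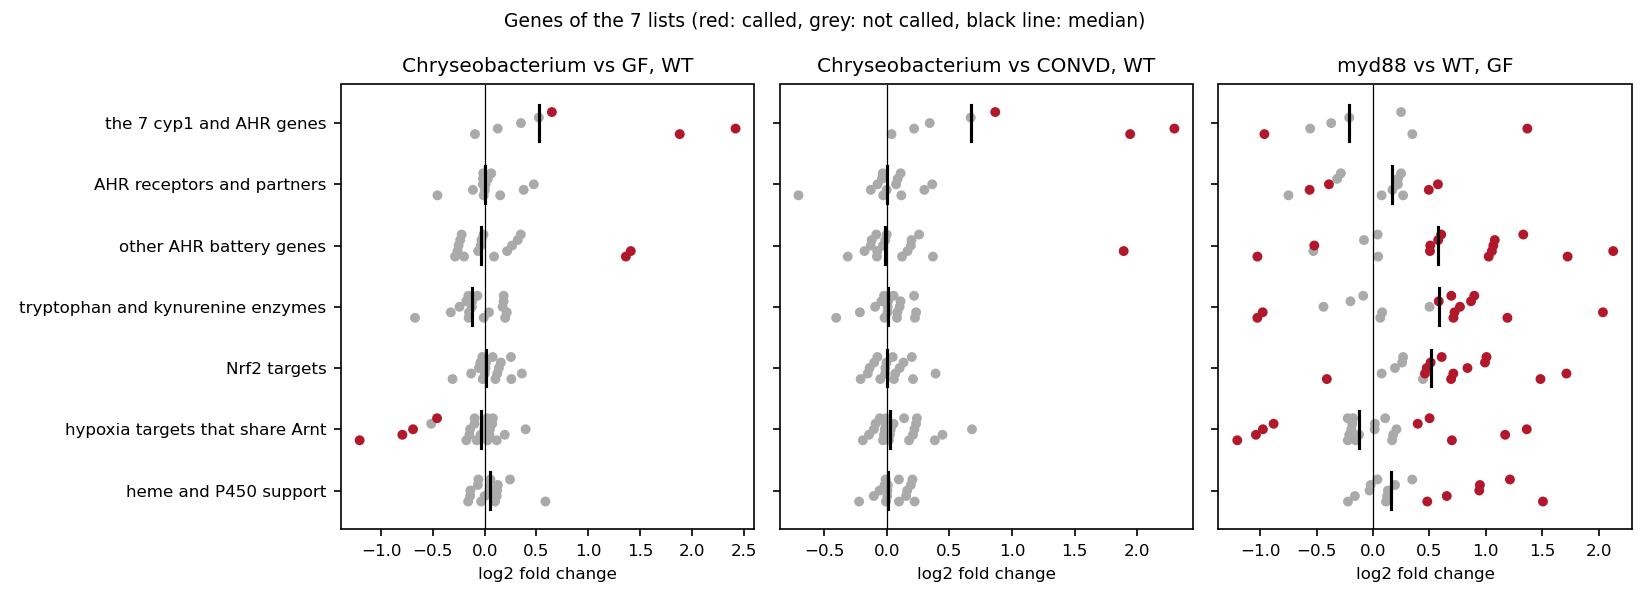
Log2 fold changes (x axis, scale differs between panels) of the genes of the 7 lists (rows), red where called and grey where not, with a black line at each list's median. With *Chryseobacterium* over GF larvae the medians of the other 6 lists lie between -0.12 and 0.05, and nothing is read from the line of the 7 cyp1 and AHR genes, which include *cyp1a* and *ahrra*; between GF mutants and GF WT larvae the calls spread over all lists.

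Between genotypes the battery list held many calls. In GF larvae 13 of the 17 were called, 11 higher and 2 lower in mutants, and in CONVD larvae 12, of which 9 were higher. Beside this stand the 31.3% and 29.7% of all genes. *nqo1* was higher in mutants, at a log2 fold change of 1.07 ± 0.08 in GF and 0.94 ± 0.08 in CONVD larvae, as was *nfe2l2a*, which encodes the Nrf2 factor (0.50 ± 0.06 and 0.59 ± 0.06). *cyp1d1*, a cyp1 gene that dioxin does not induce in zebrafish, was lower, at -1.03 ± 0.11 in GF larvae. *foxq1b* was at 1.72 ± 0.20 in GF larvae, and the glutathione transferase genes *gstp1* and *gstp2* at 0.70 ± 0.08 and 0.97 ± 0.13 in CONVD larvae, with an adjusted p of 3.58e-07 or less for each gene named here.

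Enzymes of tryptophan and kynurenine metabolism, which make ligands of the AHR in the host, gave no calls in edgeR or DESeq2 in any comparison of colonization (0 of 17, with 0 to 2 at an unadjusted p under 0.05 in each). Since only 0.077% to 1.63% of all genes were called in these comparisons (edgeR), 0 is no result about the list. Between genotypes 11 were called in GF larvae, 9 of them higher in mutants, and 10 in CONVD larvae, 8 of them higher, beside 31.3% and 29.7% of all genes. *tdo2a*, a dioxygenase that opens the tryptophan ring in liver, was higher by 0.87 ± 0.08 in GF and 0.88 ± 0.08 in CONVD larvae. *haao*, further down the kynurenine path, was higher by 2.04 ± 0.17 and 1.69 ± 0.15, and *acmsd* by 1.19 ± 0.17 and 1.28 ± 0.16. *ddc*, which makes serotonin and dopamine, was higher by 0.77 ± 0.12 in GF larvae, and *tdo2b* by 1.55 ± 0.22 in CONVD larvae, all with an adjusted p of 4.84e-05 or less.

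Targets of Nrf2, the factor of the oxidative stress response that shares genes with the AHR battery, were not called in edgeR in any comparison of colonization (0 of 17, with 1 to 4 at an unadjusted p under 0.05 in each), and DESeq2 called 1, in CONVD over GF mutants. In the comparisons of colonization 0.077% to 1.63% of all genes were called (edgeR), so 0 is near the background and no result about the list. In mutants over WT larvae 12 of 17 were called in each state, of which 11 were higher in GF and 12 in CONVD larvae, beside 31.3% and 29.7% of all genes. *pgd*, a gene of the pentose phosphate path, was higher by 1.01 ± 0.09 in GF and 0.95 ± 0.08 in CONVD larvae. *gsr*, glutathione reductase, was higher by 0.84 ± 0.10 and 0.70 ± 0.10, and the peroxiredoxin gene *prdx1* by 0.99 ± 0.13 and 0.94 ± 0.12. *hmox1a*, heme oxygenase, was higher by 1.71 ± 0.22 in GF larvae, with an adjusted p of 1.1e-06 or less for each of these values (edgeR).

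Hypoxia targets, whose factors share Arnt with the AHR, were also counted in colonized WT larvae. Of 23, the thresholds were passed by 4 with *Chryseobacterium*, 2 with *Exiguobacterium* and 3 in CONVD larvae over GF, all lower, beside 1.51%, 0.757% and 1.63% of all genes in that order. *igfbp1a*, which encodes a binding protein that restrains insulin-like growth factors, stood at -1.21 ± 0.17, -0.80 ± 0.16 and -1.43 ± 0.16 in these comparisons, in that order, and *igfbp1b* at -0.69 ± 0.17, -0.87 ± 0.17 and -0.83 ± 0.16. *ddit4*, an inhibitor of mTOR, stood at -0.80 ± 0.11 with *Chryseobacterium* and -0.79 ± 0.10 in CONVD larvae, and *pfkfb4b*, of glycolysis, at -0.46 ± 0.07 with *Chryseobacterium*. With *Chryseobacterium*, neither *igfbp1a* nor *igfbp1b* passed without libraries 1 and 3, which left 2 genes, and *igfbp1b* also failed without either of these, with the groups alone or without GF WT library 1. Without GF WT library 1, *pfkfb4b* with *Chryseobacterium*, *igfbp1b* in all 3 colonized groups and *igfbp1a* with *Exiguobacterium* did not pass. The call of *igfbp1a* with *Exiguobacterium* was also lost without GF WT library 3 or *Exiguobacterium* library 1. When thinned to equal depth, *igfbp1b* did not pass in CONVD larvae (-0.64) or with *Exiguobacterium* (-0.68). *igfbp1a*, *igfbp1b* and *ddit4* are also known to respond to fasting and stress hormones. The other 19 of the list were not called in any comparison of colonized with GF larvae. In CONVD over GF mutants 0 of 23 were called in edgeR or DESeq2, beside 0.077% of all genes, with 0 of 23 at an unadjusted p under 0.05. The median of the list was -0.04 with *Chryseobacterium*. Between genotypes 9 were called in GF and 12 in CONVD larvae, beside 31.3% and 29.7% of all genes. *epas1a*, a hypoxia-inducible factor, was higher in mutants by 1.17 ± 0.07 in GF and 1.13 ± 0.07 in CONVD larvae, and the glucose transporter gene *slc2a1a* by 0.70 ± 0.09 and 0.77 ± 0.08. *ndrg1b* (-1.20 ± 0.15) and *ddit4* (-1.04 ± 0.10) were lower in GF mutants, whereas *egln3* (1.39 ± 0.20) and *vegfaa* (0.68 ± 0.11) were higher in CONVD larvae, with an adjusted p of 6.28e-06 or less for all.

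Genes of heme synthesis and electron supply to P450 enzymes gave no calls in edgeR or DESeq2 on colonization (0 of 16, with 0 to 3 at an unadjusted p under 0.05 in each). Beside this stand 0.077% to 1.63% of all genes (edgeR), so 0 is no result about the list. With *Chryseobacterium* library 2 alone, 1 gene, *alas1*, passed over GF larvae. Between genotypes 6 were called in GF and 7 in CONVD larvae, all higher in mutants, beside 31.3% and 29.7% of all genes. *pgrmc1*, a heme-binding partner of P450 enzymes, was higher by 0.94 ± 0.09 in GF and 0.81 ± 0.09 in CONVD larvae and *cyb5a*, cytochrome b5, by 1.21 ± 0.13 and 1.14 ± 0.12. The P450 reductase name *por* matched a pair of genes, *porb* (ENSDARG00000059035) and *pora* (ENSDARG00000055092). ENSDARG00000059035 was higher by 1.51 ± 0.12 and 1.32 ± 0.12, and ENSDARG00000055092 by 0.48 ± 0.07 and 0.40 ± 0.07, all with an adjusted p of 1.01e-05 or less. The last of these calls was lost without CONVD WT library 1.

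The genes whose log2 CPM followed *cyp1a* most closely over the 18 libraries were sought among 20001 genes. The 10 highest Pearson correlations were those of *hspb6* (r = 0.92), *capn3b* (0.91), *arpp21* (0.88), *dlx3b* (0.87), *znf106b* (0.86), *spry1* (0.84), *mylk4b* (0.84), *bmp1a* (0.83), *gls2a* (0.83) and *rpp30* (0.82). The libraries share their groups, depth and handling, so these values are descriptions. *hspb6*, a small heat shock protein gene of muscle, was at 70.0 ± 14.4 CPM in *Chryseobacterium* larvae, 59.0 ± 1.24 CPM in GF mutants and 41.4 ± 2.93 CPM in GF WT larvae (SD, n = 3 each). *capn3b*, which encodes a calpain protease, was at 32.2 ± 3.81, 29.4 ± 1.82 and 19.3 ± 3.90 CPM in the same groups. Their steps were smaller than that of *cyp1a*, with log2 fold changes of 0.75 ± 0.09 for *hspb6* and 0.73 ± 0.12 for *capn3b* in *Chryseobacterium* over GF WT larvae. By Spearman's rank correlation *foxq1a* came first (0.88) and 6 of the 10 were shared. Over the 12 WT libraries alone 5 of the 10 were shared.

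**Figure D4:**
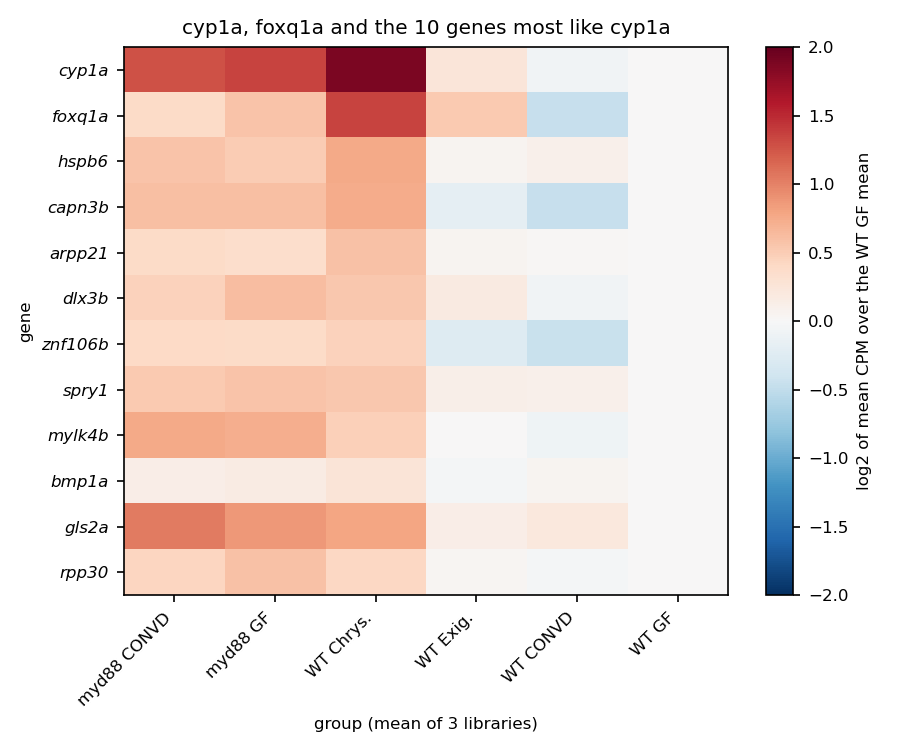
Log2 of the mean CPM of each group (columns) over the mean of GF WT larvae (colour, red higher, blue lower) for *cyp1a*, *foxq1a* and the 10 genes whose levels followed *cyp1a* most closely over 18 libraries (rows). All rows are red with *Chryseobacterium* and in both mutant groups, with *cyp1a* the darkest in each; the 10 genes were chosen for this likeness.

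Within the 7 genes, the correlation with *cyp1a* depended on which libraries were taken. Over the 12 WT libraries it was 0.90 for *ahrra*, 0.77 for *cyp1b1*, 0.74 for *ahr2*, 0.68 for *cyp1c2*, 0.45 for *ahrrb* and -0.10 for *tiparp*. Over all 18 it was 0.66 for *ahrra* and 0.77 for *ahr2*, but 0.06 for *cyp1b1* and 0.21 for *cyp1c2*. Mutants were high in *cyp1a* and low in *cyp1b1*. Among WT libraries, the *Chryseobacterium* libraries set the range of *cyp1a*. These values, too, are descriptions.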

How the data were processed

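The labels give 3 pools of 15 larvae a group and TruSeq v2 libraries, a kit that does not mark the strand, read from 1 end for 50 nucleotides. Per the study's methods, the authors used the GeneTiles server and the GRCz10 build. Bowtie2, SAMtools and DESeq stand in the submitters' processing notes, with no version. The deposited values are raw read counts per gene. In 9 libraries the deposited column had to be entered as estimated counts, because an unnamed last entry is not a whole number. That entry was left out, and all gene counts are whole. The 9 were the GF, *Exiguobacterium* and *Chryseobacterium* libraries of WT larvae, with total counts of 6404744 to 14578628. The CONVD WT and mutant libraries held 11787698 to 23600976. Comparisons between these sets, such as CONVD over GF WT larvae, also differ in this.

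Genes were filtered with filterByExpr of edgeR 4.0.16 (minimum count 10, minimum total 15; R 4.3.3), scaled by TMM and fitted over all 18 libraries with 1 coefficient per group (12 residual degrees of freedom). edgeR's robust quasi-likelihood test was used with Benjamini-Hochberg adjustment over 23367 genes, and standard errors were derived from F. Log2 CPM used a prior count of 2. The fit was tested on simulated data. Chi-square per degree of freedom between libraries of a group was 1.61 to 5.21 over 18 pairs, so no library was a copy of another of its group.

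The genes and lists were chosen with earlier results of these data known. Of 113 pathway names, 103 were matched, 8 of them through a table of gene names. The text names all 7 genes, *myd88*, up to 4 called genes of each list with the lowest p in a comparison, and the 10 genes most like *cyp1a* (average log2 CPM 1 or more). Levels of *arnt* and *arnt2*, *nqo1* in WT larvae, values of *foxq1a*, *ahr1a* and *ahr1b* beyond this rule, *anpepb* and *alas1* were added after their values were seen. Alternatives were RLE factors, no filter, no fold minimum, thinning to 6404744 reads, the groups alone, DESeq2 1.42.0, a replicate block, and leaving out libraries. For pathway and marker genes these were chosen after seeing the data. A planned promoter motif scan was not run, as no sequence was used here.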

Additional observations from a re-analysis of the deposited data

Results flagged for a closer look

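The response to conventionalization (CONVD over GF) differed between *myd88* mutants and WT larvae for 3 of the 106 matched pathway genes and for *myd88* itself. This is by edgeR's test of the difference, beside 0.813% of all genes. The lists were drawn up with results of these data known, so the count is no result about them. For *foxq1b* the difference, mutants minus WT larvae, was -1.36 ± 0.26 (SE, log2, adjusted p = 0.00389): its log2 fold change was -0.25 in mutants and 1.11 in WT larvae. The call held in 17 of 18 alternative settings and was lost when the libraries were thinned to equal depth (adjusted p = 0.221). For *igfbp1a* the difference was 1.41 ± 0.22 (adjusted p = 0.00559), in 18 of 18 settings, and for *ddit4* 0.65 ± 0.14 (adjusted p = 0.0158), which held in 11 of 18 settings with adjusted p between 0.00519 and 0.115. The *ddit4* call was lost when thinned, or without WT GF library 1, WT CONVD library 2, mutant GF library 2 or 3 or mutant CONVD library 1 or 3. For *myd88*, the mutated gene, it was 1.38 ± 0.23 (adjusted p = 0.00061). None of the 7 cyp1 and AHR genes was called in this comparison, and the value of *cyp1a* in it is only a description.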

How the results depend on the processing

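The count of the 7 genes called, which with *Chryseobacterium* includes *cyp1a* and is no result about the list, moved in these settings. With *Chryseobacterium* over GF larvae it was 1 when thinned, 2 in DESeq2 and with the groups alone, and 1 to 3 when 1 library was left out. With *Chryseobacterium* over CONVD larvae it was 1 when thinned and 1 with the groups alone, and over *Exiguobacterium* or CONVD larvae 1 to 3 when 1 library was left out. DESeq2 counted 2 over *Exiguobacterium* larvae, where it gave *ahrra* no adjusted p, and when thinned *ahrra* was not tested. Between GF mutants and GF WT larvae it was 4 without a minimum fold change, and between CONVD mutants and CONVD WT larvae 1 without the filter, 1 when thinned, 1 in DESeq2 and 1 to 2 when 1 library was left out. Of the 10 genes most like *cyp1a*, 6 were shared by Spearman's correlation and 5 over WT libraries.

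Uncalled values crossed 0 as follows (log2, lowest to highest when 1 library was left out). In CONVD over GF WT larvae *ahrra* ran from -0.33 to 0.40, and in *Exiguobacterium* over GF larvae *ahr2* was -0.06 when thinned. In CONVD over GF mutants *ahrra* ran from -0.19 to 0.38 and *cyp1c2* from -0.004 to 0.56. In CONVD mutants over WT larvae *tiparp* ran from -0.0717 to 0.0062 and *cyp1c2* from -0.24 to 0.23, and thinned they were 0.0236 and -0.12. The interaction ran from -0.17 to 0.50 for *ahrrb*, -0.13 to 0.0505 for *cyp1a* and -0.33 to 0.47 for *ahrra*. In *Chryseobacterium* over *Exiguobacterium* larvae *ahrrb* ran from -0.056 to 0.35 and *tiparp* from -0.0694 to 0.0819, and with *Chryseobacterium* library 2 alone they were -0.0423 and -0.0038. Over CONVD larvae *tiparp* ran from -0.0412 to 0.11. The cause was not tested.

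Over all genes, DESeq2 called 275 and edgeR 180 in *Chryseobacterium* over *Exiguobacterium* larvae, and elsewhere the tools were within 1.5 times of each other. Of 68 calls of pathway genes, 49 held in every setting. Replicate numbers were not taken as pairs. Deviations of same-numbered libraries correlated at -0.092 to 0.182 and those of other numbers at -0.171 to 0.088. Of 18 libraries, 12 correlated best with their own number. Whether same-numbered libraries share an origin was not tested. With a replicate block 3 of the 7 genes were called in each *Chryseobacterium* comparison, 2 in each genotype comparison and 0 elsewhere, as without it. The *Chryseobacterium* counts include *cyp1a* and *ahrra*, and the genotype counts without the block were near the background. They are therefore no result about the list. Depth limits *ahrra*, with 2 to 12 reads in every library outside *Chryseobacterium*.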
